A study of Mus musculus with 5 samples.

Results

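The 10 genes described here encode the 3 D-type cyclins (Ccnd1, Ccnd2 and Ccnd3), the 2 kinases they activate (Cdk4 and Cdk6) and 5 proteins that inhibit cyclin-dependent kinases (CDKs), namely Cdkn1a and Cdkn1b of the Cip/Kip family and Cdkn2b, Cdkn2c and Cdkn2d of the INK4 family. They were chosen by gene symbol from the 31053 genes counted, and all 10 had at least 1 UMI (a counted molecule) in every library. The data were single-cell RNA-seq of whole dissociated ovaries from untreated C57BL6/J mice at 2, 3, 4, 5 and 6 wk of age, with 1 library per age. All libraries shared the genotype, trypsin dissociation, sorting for live cells with SYTOX Orange and the 10x Chromium 3′ chemistry. How many animals entered a library is not given in the sources used here, so no value below measures the spread between mice, and no p-value is given.

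D cyclins bind CDK4 or CDK6, and the active kinase phosphorylates the retinoblastoma (RB) protein family, which frees E2F transcription factors to switch on the genes of DNA replication. INK4 proteins bind CDK4 and CDK6 and keep them from the D cyclins, whereas Cip/Kip proteins act mainly on cyclin-CDK2 complexes and also bind cyclin D-CDK4 complexes. In the ovary, Ccnd2 is the D cyclin that follicle-stimulating hormone induces in granulosa cells, and granulosa cells lacking it proliferate poorly in response to that hormone, while Cdkn1b is known for its part in the cell cycle exit of luteinizing granulosa cells and in holding primordial follicles at rest.

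The 5 libraries held 7779 to 11077 cells and 93438618 to 144609431 UMIs each, and any pair of libraries shared 18 to 35 cell barcodes. Clustering gave 7 granulosa groups with 16199 cells and 11 mesenchymal groups with 16876 cells, from marker lists in which none of the 10 genes appears. Ccnd1, Ccnd2 and Cdkn1a were among the 2000 genes used for clustering, and the other 7 were not. Granulosa cluster 9 (820 cells) matched the primordial list by 3 of 7 markers and cluster 2 (2083 cells) matched the secondary list, but neither had a marker of its own among its 10 leading genes and each had 1 marker of primary follicles there (Gatm and Gas6), so both are called by number. The remaining groups were primary-like (2409 cells), antral-like (3343) and remodeling-like cells (3233) and S phase-like (3074, clusters 5, 8 and 10) and G2/M-like cells (1237). Remodeling is the study's name for granulosa cells of first-wave follicles that undergo atresia. Only 87 and 135 of the remodeling cells came from 2 and 3 wk, against 1344, 770 and 897 at 4, 5 and 6 wk.

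Levels are CPM, the UMIs of a gene per 1000000 UMIs in the summed cells of a group in a library, listed in the order 2, 3, 4, 5 and 6 wk, and means are given as mean ± SD over the 5 libraries with equal weight. Levels were not compared between genes. Between 2 groups, a gene was called higher or lower when the mean CPM differed at least 1.5-fold and the direction was the same in every library with at least 20 cells in both groups. Genes with a mean of at least 5 CPM over both groups were eligible, and the percentage of all eligible genes called in the same comparison, in either direction, is the background against which a count of members is read. The value after "higher by" or "lower by" is the ratio of the 2 means, so that 0.5 stands for 0.5 times the level. Comparisons that share a group, such as cluster 2 over primary and antral over cluster 2, are not independent of each other.

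Among the D cyclins, Ccnd2 and Ccnd3 were counted throughout granulosa cells, and Ccnd1 was near the limit of counting. The Ccnd2 level was 1116, 957, 886, 643 and 671 CPM in cluster 9 (855 ± 199), the highest mean of any granulosa group. Primary-like cells held 588, 636, 741, 523 and 606 CPM (619 ± 79.8) and cluster 2 held 494, 584, 669.6, 455 and 686 CPM (578 ± 103). These 2 groups overlapped library by library, with a ratio of 0.934 between their means. Antral-like cells were lower than cluster 2 in all 5 libraries, at 335, 486, 395, 369.6 and 533 CPM (424 ± 82.6), by a ratio of 0.733 that did not reach the 1.5-fold limit. The 2 antral-like clusters differed, with 307 ± 76.2 CPM in cluster 3 and 528 ± 140.5 CPM in cluster 4. Remodeling cells held the lowest mean, 327, 304, 156, 120.5 and 154 CPM (212 ± 95.6). The order of means was thus cluster 9, S phase, primary, cluster 2, G2/M, antral and remodeling, and the neighbours from S phase to G2/M did not differ beyond their SDs of 79.8 to 127 CPM.

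Ccnd3, a D cyclin better known from lymphoid and muscle cells, was low in granulosa cells. Cluster 9 held 82.8, 69.2, 66.7, 52.4 and 44.6 CPM and primary-like cells 26.9, 27.2, 38.9, 28.6 and 25.6 CPM, so the 2 groups did not overlap and the primary-like level was lower by a ratio of 0.466 (range over libraries 0.325 to 0.584). The mean was 19.9 ± 2.67 CPM in cluster 2 and 16.9 ± 2.35 CPM in antral-like cells, steps of 0.675 and 0.851 that were not called.

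Ccnd1, the D cyclin of many mesenchymal and endothelial cells, was near the limit of counting in granulosa cells. Over all 7 granulosa groups and 5 libraries its level was 0 to 2.75 CPM. In cells thinned to 3000 UMIs, 0.145% of cluster 2 and 0.497% of cluster 9 held a Ccnd1 UMI, the lowest and highest share of the granulosa groups, against 26.2% of mesenchymal S phase cells. Without thinning the 3 shares were 1.20%, 1.34% and 68.4%. A granulosa level this low cannot be told apart from free RNA of other cells in the droplets.

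The kinase genes varied less between granulosa stages. Cdk4 averaged 256, 286, 267, 276 and 277 CPM in cluster 9, primary-like cells, cluster 2, antral-like and remodeling cells, with SDs of 16.8 to 50.6 CPM. None of these stages differed from the next by the call, and the ratios ran only from 0.934 to 1.12. Cdk6 averaged 103, 108, 105 and 92.3 CPM in the same first 4 groups. Its lowest granulosa mean was in remodeling cells, at 89.4, 73.6, 76.6, 44.9 and 50.8 CPM.

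**Figure D1:**
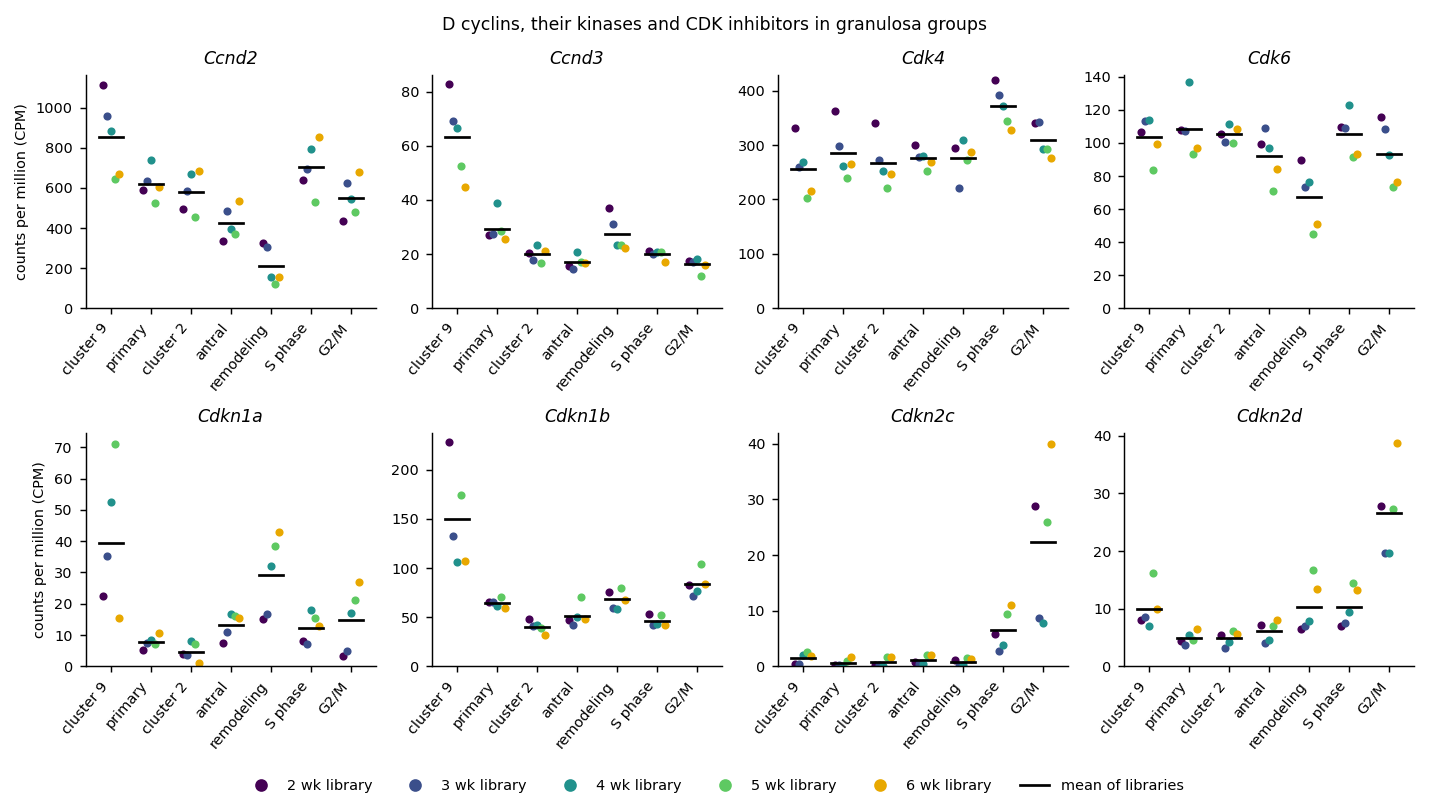
Level of 8 members in the 7 granulosa groups. The y axis is CPM, each point is 1 library coloured by age, and the black bar is the mean of the 5 libraries. Ccnd2 averages 855 CPM in cluster 9 and 212 CPM in remodeling cells. Cdkn1a and Cdkn1b have their highest means in cluster 9, and Cdkn2c and Cdkn2d have theirs in G2/M cells.

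Both Cip/Kip inhibitors had their highest granulosa mean in cluster 9. For Cdkn1a the order was reversed at 6 wk, when remodeling cells, with a mean of 29.1 CPM over the libraries, held more than cluster 9. Cdkn1a, which encodes p21 and is a classical target gene of p53, held 22.5, 35.3, 52.5, 71.2 and 15.5 CPM there (39.4 ± 22.7), with the 5 wk library highest and the 6 wk library lowest. It was 5.29, 7.55, 8.51, 7.30 and 10.6 CPM in primary-like cells, below cluster 9 in every library. The ratio was 0.199 (range 0.103 to 0.686), and with stricter cells it was 0.127. With the members left out of the second clustering it was 0.205, without the same direction in every library. Cluster 2 had the lowest mean, with 3.85, 3.56, 7.97, 7.02 and 1.08 CPM, and lay below primary-like cells by a ratio of 0.598 that spanned 0.101 to 0.961 over libraries. That call was lost under 5 alternatives, among them leaving out the 6 wk library, which gave 0.781. Antral-like cells held 7.38, 11, 16.7, 16.2 and 15.5 CPM and were higher than cluster 2 in all 5 libraries, by a ratio of 2.85. The 6 wk library alone gave a ratio of 14.5, because cluster 2 held only 1.08 CPM there, and the other 4 libraries gave 1.92 to 3.09.

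Cdkn1b, which encodes p27, held 228, 133, 106, 175 and 107 CPM in cluster 9 (149.8 ± 51.7), 65, 65.8, 61.4, 70.9 and 59.8 CPM in primary-like cells (64.6 ± 4.30) and 47.9, 40.6, 42.4, 39.5 and 31.4 CPM in cluster 2 (40.4 ± 5.96). The 3 groups did not overlap. Each step was called lower, by 0.431 and then 0.625. Antral-like cells held 51.6 ± 11.1 CPM, a ratio of 1.28 that was not called and was below 1 at 2 wk.

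The promoters of the 2 Cip/Kip genes are shown because both genes were lower in primary-like cells than in cluster 9. They are RefSeq sequences of GRCm38.p6, from 250 bases before to 50 bases after an annotated start, and the capitals mark a match to the p53 element in Cdkn1a and the letters CCAAT or their reverse complement ATTGG in Cdkn1b. The motifs were searched on both strands and were chosen with the values known.
Cdkn1a, chr17:29090729-29091028, plus strand: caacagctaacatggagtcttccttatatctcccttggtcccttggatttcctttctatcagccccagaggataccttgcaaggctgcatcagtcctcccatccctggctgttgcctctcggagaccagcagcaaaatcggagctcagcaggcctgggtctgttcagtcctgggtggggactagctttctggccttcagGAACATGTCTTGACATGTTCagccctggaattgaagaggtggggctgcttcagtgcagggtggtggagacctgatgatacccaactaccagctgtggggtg
Cdkn1b, chr6:134920151-134920450, plus strand: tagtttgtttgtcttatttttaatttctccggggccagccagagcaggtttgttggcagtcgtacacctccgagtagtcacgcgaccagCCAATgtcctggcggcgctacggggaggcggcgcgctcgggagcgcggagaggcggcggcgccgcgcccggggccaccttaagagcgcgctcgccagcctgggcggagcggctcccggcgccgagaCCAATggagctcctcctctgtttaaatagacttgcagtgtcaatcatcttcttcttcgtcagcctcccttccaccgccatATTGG
The 20 bases marked in Cdkn1a begin 51 bases before the start and match the p53 element with at most 1 mismatch, as do 29 of 32851 promoters of this length (0.08828%). Cdkn1a has a second annotated start, with the window chr17:29093519-29093818, in which no such match was found. The Cdkn1b promoter holds CCAAT or its reverse complement at 3 places, and 37.4% of all promoters hold at least 1. The marked stretches are matches of letters and no binding was measured.

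Counted over the members, 4 of the 7 eligible ones were lower and 0 higher in primary-like cells than in cluster 9 (Ccnd3, Cdkn1a, Cdkn1b and Cdkn2d), where 15.2% of all eligible genes were called in either direction. The median log2 ratio of the 7 was -1.02, against 0.01 over all eligible genes. From primary-like cells to cluster 2, 2 of 6 were called, both lower (Cdkn1a and Cdkn1b), against a background of 8.0%, and the median was -0.33 against -0.12. From cluster 2 to antral-like cells, 1 of 7 was called (Cdkn1a, higher) against 10.2%, with medians of 0.05 and -0.02. In each of these 3 comparisons 1 call was of a member that passed the CPM minimum only through the group where it was higher (Cdkn2d in the first, Cdkn1a in the others), so that its call could hardly have gone the other way. Without that call 3, 1 and 0 members remained called.

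Markers of cell stress moved with the first of these comparisons. Of 10 genes known to be induced by dissociation (Fos, Jun, Egr1, Hspa1a and others), 8 were lower and 0 higher in primary-like cells than in cluster 9, and their summed level was 10239 to 14634 CPM in cluster 9 and 3318 to 7708 CPM in primary-like cells. Of the 11 eligible p53 target genes, 4 were lower and 0 higher (Btg2 0.230, Gadd45a 0.304, Phlda3 0.431 and Ccng1 0.629). The summed level of the p53 list was 1653 to 4282 CPM in cluster 9 and 529 to 1164 CPM in primary-like cells. Most of it was Btg2, which averaged 2114 of 2582 CPM in cluster 9 and 487 of 798 CPM in primary-like cells. The part of either gene list in the Cdkn1a and Cdkn1b difference was not tested. Of 13 eligible partners of the RB pathway, 2 were higher and 0 lower (Skp2, which targets Cdkn1b protein for degradation, 1.99, and the phosphatase gene Cdc25a 1.57).

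Remodeling cells differed from antral-like cells in 3 members. Ccnd2 was lower, by a ratio of 0.501, and Cdkn1a and Ccnd3 were higher, by 2.17 and 1.62. This made 3 of 7 eligible members called against a background of 14.7%, and the median log2 ratio was 0.40 against 0.07.

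The Ccnd2 difference was not the same at all ages. The ratio was 0.976 at 2 wk, where the 2 groups held 327 and 335 CPM, then 0.626, 0.395, 0.326 and 0.289 at 3 to 6 wk. The libraries with few remodeling cells therefore showed the smallest differences. Of the 2 remodeling clusters, cluster 1 held 327, 325, 188, 125 and 182 CPM, and cluster 7, which had at least 20 cells only at 4, 5 and 6 wk, held 109, 109.5 and 97.8 CPM. At 3000 UMIs a cell, 27.6% of remodeling cells and 58.5% of antral-like cells held a Ccnd2 UMI (58.4% and 88.5% without thinning). The call was lost under 5 alternatives, because the near tie at 2 wk left the direction not the same in every library, with ratios of means of 0.403 to 0.625.

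Cdkn1a was higher in remodeling cells in every library, with 15.3, 16.8, 31.9, 38.3 and 42.9 CPM against 7.38, 11, 16.7, 16.2 and 15.5 CPM in antral-like cells. The ratios by library were 1.53 to 2.76. Cluster 1 held 15.5, 17.8, 37.5, 42 and 55.4 CPM and cluster 7 held 23.7, 28.9 and 17.7 CPM at 4, 5 and 6 wk, so cluster 1 was the higher of the 2 at each of these ages. Of 11 eligible p53 targets, 3 were higher and 0 lower in remodeling cells (Phlda3 3.16, Gadd45a 2.58 and Btg2 1.98). The summed level of the list was 848 to 1495 CPM against 596 to 932 CPM. Btg2 alone averaged 676 of 1181 CPM in remodeling cells and 341 of 705 CPM in antral-like cells. Of the 10 dissociation genes, 2 were higher and 0 lower (Atf3 2.28 and Junb 1.60), with summed levels of 6422 to 11880.2 against 5684 to 9343 CPM. The part of dissociation in the Cdkn1a difference was not tested.

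Ccnd3 held 37.1, 31, 23.2, 23.4 and 22.1 CPM in remodeling cells and 15.8, 14.4, 20.7, 17 and 16.6 CPM in antral-like cells. The groups did not overlap, and the largest ratios were those of 2 and 3 wk (2.35 and 2.15). Without the 2 wk library the ratio was 1.45, and with TMM scaling it was 1.49, both short of the limit. Cdkn2d was higher in 4 of 5 libraries, by a ratio of 1.67, and was not called because of 0.911 at 2 wk. Without that library it was called, at 1.90.

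Cdkn1b was 75.2, 59.4, 58.3, 80.1 and 67.2 CPM in remodeling cells, higher than in antral-like cells in all 5 libraries by 1.13 to 1.61. Its ratio of 1.32 was not called, but with the members left out of the second clustering it was just past the limit, at 1.504, and called. Cdk6 was lower in all 5 (ratio 0.727) and Cdk4 was equal within its spread (1.01), neither of them called. Among 14 eligible RB pathway partners 1 was called, Cdkn1c, the remaining Cip/Kip inhibitor, which was higher by 3.69.

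**Figure D2:**
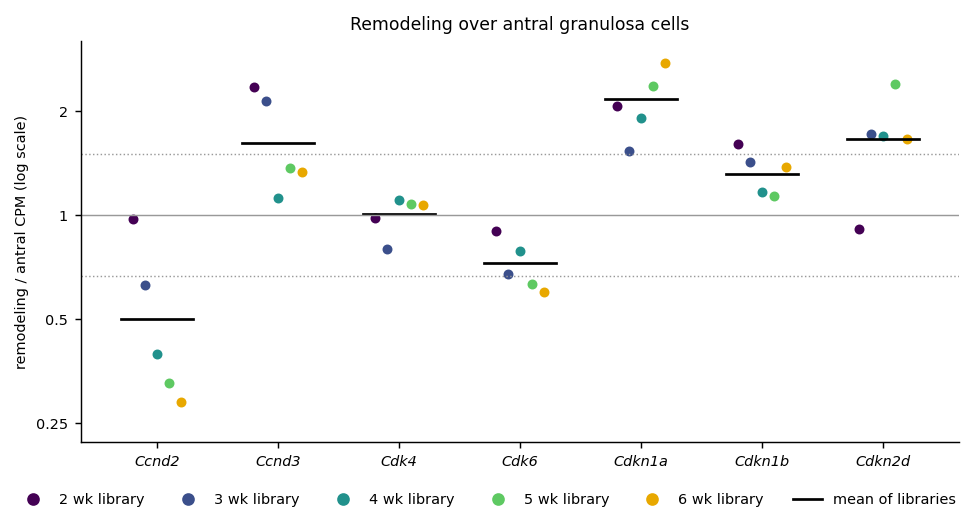
Ratio of remodeling to antral CPM for the 7 eligible members. The y axis is a log scale, each point is 1 library coloured by age, the black bar is the ratio of the means, the solid line marks 1 and the dotted lines mark 1.5-fold. Ccnd2 lies at 0.976 at 2 wk and 0.289 at 6 wk, and Cdkn1a lies above 1.5 in every library.

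In dividing granulosa cells the INK4 inhibitors Cdkn2c and Cdkn2d stood out. Cdkn2c, which encodes p18, was almost uncounted in non-dividing granulosa cells, at 0.392, 0.307, 0.300, 1.67 and 1.71 CPM, and held 10.6, 4.16, 5.51, 15.8 and 20.7 CPM in the S phase and G2/M clusters together. The ratio was 13 (range 9.46 to 27.1). Within dividing cells the level was 28.9, 8.69, 7.79, 26 and 39.97 CPM in G2/M and 5.78, 2.73, 3.77, 9.42 and 11 CPM in S phase, 3.40 times higher in G2/M by the means (8.48 without cluster 10). Of the 3 S phase clusters, cluster 10 had the highest level, at 16.9 ± 8.41 CPM, against 3.16 ± 1.72 in cluster 5 and 1.59 ± 1.55 in cluster 8. Cluster 10 matched 8 markers of the S phase list and scored 1.53 for S phase and 1.31 for G2/M. It led with histone genes, Pclaf, Rrm2 and Tk1 and with Top2a, a G2/M marker, and had none of the S phase markers among its 10 leading genes. Clusters 5 and 8 had 6 and 2 of them there, so values of the S phase group are given below with and without cluster 10. Without cluster 10 the ratio of dividing over non-dividing cells was 11.6 for Cdkn2c and 1.80 for Cdkn2d.

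Cdkn2d, which encodes p19 of the INK4 family, was also highest in G2/M. It held 5.68, 4.18, 6.05, 11.2 and 9.44 CPM in non-dividing and 11.4, 10.5, 13.9, 19.4 and 21.7 CPM in dividing cells, a ratio of 2.11. In G2/M it was 27.8, 19.7, 19.7, 27.3 and 38.8 CPM, 2.58 times the S phase mean of 10.3 CPM (5.86 times without cluster 10). The lowest G2/M library lay above the highest S phase library.

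The promoters of these INK4 genes are given because the 2 genes were highest in the same cells. They are RefSeq sequences of GRCm38.p6 over the same window, and the capitals again mark CCAAT or ATTGG.
Cdkn2c, chr4:109665323-109665622, minus strand: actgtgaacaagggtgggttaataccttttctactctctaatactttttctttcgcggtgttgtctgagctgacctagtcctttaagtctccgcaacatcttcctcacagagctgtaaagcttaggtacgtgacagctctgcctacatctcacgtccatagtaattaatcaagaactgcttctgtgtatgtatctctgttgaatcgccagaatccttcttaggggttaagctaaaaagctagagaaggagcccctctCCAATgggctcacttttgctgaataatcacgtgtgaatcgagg
Cdkn2d, chr9:21291160-21291459, minus strand: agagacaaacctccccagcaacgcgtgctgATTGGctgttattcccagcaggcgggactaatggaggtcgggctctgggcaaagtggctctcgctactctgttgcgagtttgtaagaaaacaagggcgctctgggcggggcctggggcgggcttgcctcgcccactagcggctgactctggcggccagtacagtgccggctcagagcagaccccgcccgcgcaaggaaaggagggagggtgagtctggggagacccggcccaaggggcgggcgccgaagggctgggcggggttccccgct
Each holds 1 such match, 7 bases after the start in Cdkn2c and 220 bases before it in Cdkn2d. The Cdkn2d promoter also holds GGGCGG or its reverse complement at 5 places, a match that 35.7% of all promoters have. Cdkn2c has a second annotated start at chr4:109666707-109667006 with no CCAAT match and 4 matches to GGGCGG.

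Among the activators, Ccnd2 was higher in dividing than in non-dividing granulosa cells in 5 of 5 libraries, with 598, 678, 684, 509.6 and 796 against 575, 589, 362, 293 and 434 CPM. The ratio of 1.45 was under the limit, and without the 2 wk or the 3 wk library it passed, at 1.59 and 1.55. S phase cells alone were called higher, at 1.56 (range 1.11 to 2.19, and 1.68 without cluster 10), and G2/M cells were not (1.22). The non-dividing sum pools stages with unlike Ccnd2 levels, from 212 CPM in remodeling cells to 855 CPM in cluster 9. Dividing cells averaged 653 CPM and primary-like cells 619 CPM. The part of stage in these Ccnd2 ratios was not tested. Cdk4 was 1.22 times and Cdk6 1.12 times the non-dividing mean, higher in all 5 libraries and not called.

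Cdkn1b distinguished the 2 phases. It held 52.8, 41.9, 43.2, 52.1 and 41.8 CPM in S phase and 83, 71.6, 76.5, 105 and 84.1 CPM in G2/M granulosa cells, with no overlap and a ratio of 1.81 (1.97 without cluster 10), while dividing and non-dividing cells taken whole were nearly equal (0.920). Ccnd3 was lower in G2/M than in non-dividing cells, by 0.660, and Cdkn1a was not called in either phase. Cluster 10 decided other S phase values. With it 1 of 7 eligible members, Ccnd2, was called between S phase and non-dividing cells. Without it 4 were, Cdkn1a (0.530), Cdkn1b (0.665) and Cdkn2d (0.622) being lower. Cdkn2d then held 4.55 CPM in S phase and passed the CPM minimum only through non-dividing cells, so its call could hardly have gone the other way. The Cdkn2d ratio with cluster 10 was 1.41, on the other side of 1 and not called. With cluster 10 included, 17.9% of all eligible genes were called between S phase and non-dividing granulosa cells, and no such share was counted without it. Between G2/M and non-dividing granulosa cells the share was 19.8%.

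Counted over the members, 2 of 8 eligible were higher and 0 lower in dividing granulosa cells, where 17.0% of all eligible genes were called, and the medians were 0.23 and -0.03. Cdkn2c passed the CPM minimum only through dividing cells, and without it 1 of 7 was called, Cdkn2d. Between the phases 3 of 8 eligible members were higher in G2/M (Cdkn1b, Cdkn2c and Cdkn2d) and 0 lower, against 7.65% of all eligible genes. The same 3 were called without cluster 10, for which no share of all genes was counted. Cdkn2c (2.63 CPM in S phase) and Cdkn2d (4.55 CPM) then passed the CPM minimum only through G2/M cells, where they were higher. Of the 20 RB pathway partners 13 were higher in dividing granulosa cells, but 7 of these (E2f1, E2f2, E2f7, E2f8, Ccne1, Ccne2 and Ccna2) passed the CPM minimum only through the dividing cells. The other 6 were Rbl1 (5.34), Skp2 (2.66), E2f3, Tfdp1, Cdc25a and Cdk2, and 1 was lower, Cdkn1c, at 0.616. The dividing groups were named by S phase and G2/M markers, and E2f1 was among the 10 leading genes of cluster 5. Higher levels of such cell cycle genes therefore follow in part from how the groups were made. Dividing clusters had 1.68 to 2.43 times the median UMIs per cell of their libraries and the non-dividing named clusters 0.940 to 1.49 times. At 3000 UMIs a cell, 6% of G2/M cells and 0.250% of primary-like cells held a Cdkn2c UMI (33.1% and 0.747% without thinning).

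Mesenchymal cells used the same genes in another pattern. Ccnd1 was the member most unequal among the 11 mesenchymal groups. S phase cells held 113, 122, 121, 127 and 132 CPM (123 ± 7.24). Early theca-like cells held 55.2, 67.7, 52.6, 53.3 and 59.1 CPM and the Cd24a type 67.9, 99.4, 47.5, 29.8 and 44.1 CPM. The Cxcl12, Hoxd9, Col11a1 and Col14a1 types averaged only 3.77, 3.49, 3.04 and 5.01 CPM. Smooth muscle-like cells went from 38.6 CPM at 2 wk to 1.20 CPM at 6 wk. Ccnd1 is among the 10 leading genes of the early theca-like cluster, so its level there helped to define that cluster.

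Ccnd2 was spread more evenly, from 186 CPM in the Cxcl12 type to 365 CPM in the Hoxd9 type among the non-dividing groups. Its SDs of 59.5 to 117 CPM covered most neighbours in that order. Ccnd3 was highest in the Col14a1 type, at 195, 235, 215, 155 and 132 CPM, followed by the Hoxd9 type at 134, 169, 161, 90.1 and 108 CPM. The Col14a1 type was the higher of the 2 in every library. Cdk6 averaged 22.7 CPM in steroidogenic theca-like cells, the lowest mean of any group, and 72.1 CPM in the Hoxd9 type.

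Among the inhibitors, Cdkn1a was highest in the Col14a1 type, at 102, 404, 264, 352 and 58.6 CPM (236 ± 152). In 11 of the 22 groups with all 5 libraries the 6 wk library held the lowest Cdkn1a level. Cdkn1b averaged 113 ± 45.7 CPM in the Cxcl12 type and 107 ± 25.4 CPM in smooth muscle-like cells, and only 49.6 ± 4.55 CPM in the Col14a1 type, so the 2 Cip/Kip genes did not peak in the same subtype. Cdkn2b, which encodes p15, stayed at or under 11.1 CPM in every mesenchymal group and library, and its highest mesenchymal mean was 4.64 ± 4.13 CPM in the Cd24a type, where 2 and 3 wk held 0.264 and 0.262 CPM and 4 to 6 wk held 5.90 to 8.47 CPM. In granulosa groups Cdkn2b did not exceed a mean of 0.988 CPM.

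**Figure D3:**
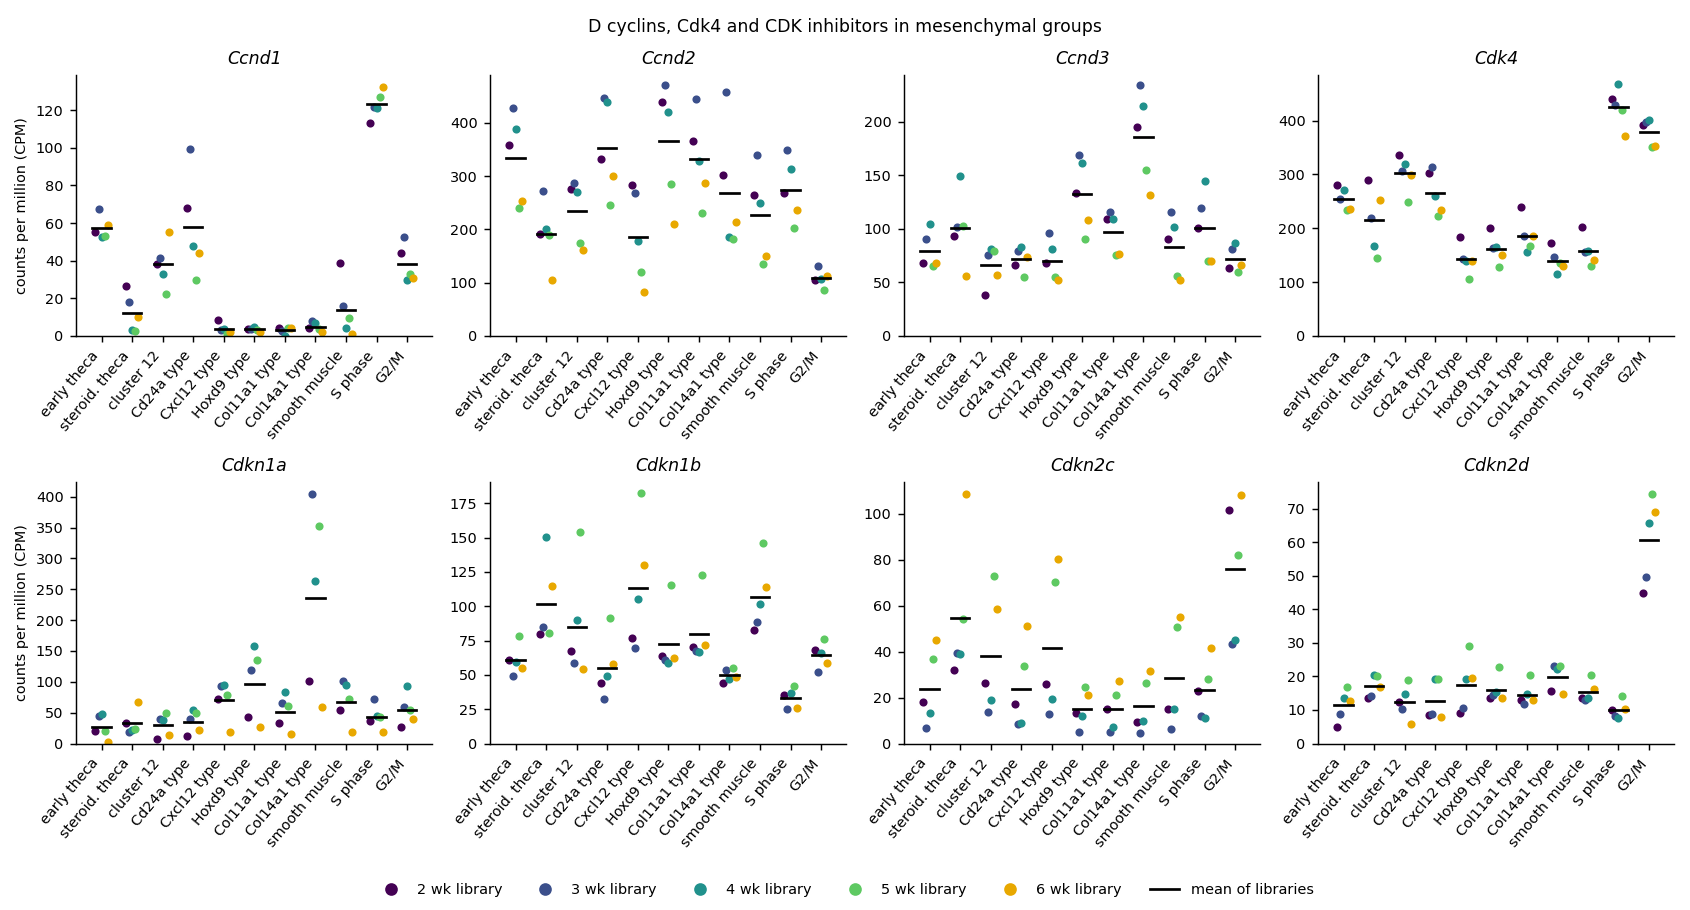
Level of 8 members in the 11 mesenchymal groups. The y axis is CPM, each point is 1 library coloured by age and the black bar is the mean of the 5 libraries. Ccnd1 is highest in S phase cells at 123 CPM, Ccnd3 and Cdkn1a in the Col14a1 type at 186 and 236 CPM, and Cdkn2c and Cdkn2d in G2/M cells at 76.1 and 60.8 CPM.

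Theca cells make the androgens that granulosa cells turn into estrogen, and the steroidogenic theca-like cells were compared with the early theca-like cells. Ccnd1 was lower in the steroidogenic cells in all 5 libraries, at 26.5, 18, 3.28, 2.45 and 10.1 CPM, a ratio of 0.210 (range 0.0459 to 0.480). Ccnd1 was a clustering gene and a leading gene of the early theca-like cluster. With the members left out of the second clustering its ratio was 0.106. Ccnd2 was lower by 0.576 and Cdk6 by 0.389, both in 5 of 5 libraries.

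Cdkn1b and Cdkn2c were higher in the steroidogenic cells. Cdkn2c held 32, 39.3, 38.8, 54.4 and 109 CPM there against 17.9, 6.59, 13.2, 37 and 45 CPM in early theca-like cells, a ratio of 2.28. Cdkn1b held 79.6, 84.5, 151, 80.5 and 114 against 60.7, 49.4, 59.2, 78.5 and 54.7 CPM, a ratio of 1.68 that came to 1.02 at 5 wk, and the call was lost without the 4 wk library (1.48) and when cells were weighted equally (1.64). Cdkn2d was higher in 5 of 5 libraries at a ratio of 1.49, just under the limit, and passed it under 6 alternatives, at up to 2.15.

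In all, 2 of 9 eligible members were higher and 3 lower, beside 29.0% of all eligible genes called, so the members' share was read against a comparison in which many genes differed. The medians were 0.25 and 0.10. Cluster 12 scored highest for the steroidogenic list, but its 10 leading genes held no marker of that list and 1 of early theca (Hhip), so it is called by number and entered neither group. Its Ccnd1 level of 38 ± 11.9 CPM lay between those of the 2 compared groups.

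Dividing mesenchymal cells differed from non-dividing ones in 6 of 9 eligible members, 4 higher and 2 lower, beside a background of 24.6%, with medians of 0.10 and 0.01. Ccnd1 was higher, with 65.8, 81.1, 59.8, 56.4 and 59.3 against 30.6, 34.4, 20.6, 12.5 and 19.5 CPM, a ratio of 2.74. The non-dividing sum pools subtypes with unlike Ccnd1 levels. Early theca-like cells averaged 57.6 CPM and the Cxcl12, Hoxd9, Col11a1 and Col14a1 types far less. Dividing cells averaged 64.5 CPM, with 123 CPM in S phase and 38.0 CPM in G2/M. The part of subtype in this ratio was not tested. Cdk4 was higher by 1.98, Cdkn2c by 2.09 and Cdkn2d by 3.05.

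Ccnd2 was lower in dividing mesenchymal cells, with 157, 220.5, 174, 116 and 147 against 326, 387, 304, 185 and 196 CPM, a ratio of 0.583. This was the opposite direction to granulosa cells in all 5 libraries, and the difference between the lineages was not tested. Cdkn1b was lower by 0.660, a call that 4 alternatives ended at 0.676 to 0.691.

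The 2 mesenchymal phases differed in 5 members. From S phase to G2/M, Ccnd1 was lower by 0.309 and Ccnd2 by 0.397, and Ccnd2 of S phase cells was equal to that of non-dividing cells within its spread (0.980). Cdkn1b was 0.402 times the non-dividing mean in S phase, at 35.6, 25.4, 37.1, 42.1 and 25.5 CPM, and was higher in G2/M than in S phase by 1.94. Cdkn2c and Cdkn2d were higher in G2/M than in S phase by 3.28 and 6.02, as they were in granulosa cells. The 5 members called between phases stand beside 8.62% of all eligible genes. Against non-dividing mesenchymal cells, 27.1% of eligible genes were called in S phase and 24.9% in G2/M.

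The phase groups were not built alike in both lineages. The mesenchymal G2/M group joined cluster 13 with cluster 16, which led with histone genes, whereas granulosa cluster 10, with similar leading genes, was placed in S phase. Cluster 13 alone held 40.3 CPM of Ccnd1, 143 of Ccnd2 and 34.5 of Cdkn2d, and cluster 16 held 36.2, 79.2 and 85.1. Ccnd1 and Ccnd2 were thus below their S phase means in both clusters. Of the RB pathway partners, 13 of 20 were higher in dividing mesenchymal cells and 2 lower, Cdkn1c at 0.480 and Myc at 0.596. Of the 13, 6 were only eligible through the dividing cells, and the other 7 were led by E2f1 (7.83). The dividing mesenchymal groups were also named by S phase and G2/M markers, so higher cell cycle genes follow in part from that. Of the dissociation genes 9 of 10 were lower and 0 higher in dividing mesenchymal cells, and 4 of 10 were lower in dividing granulosa cells, and their part in these ratios was not tested.

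**Figure D4:**
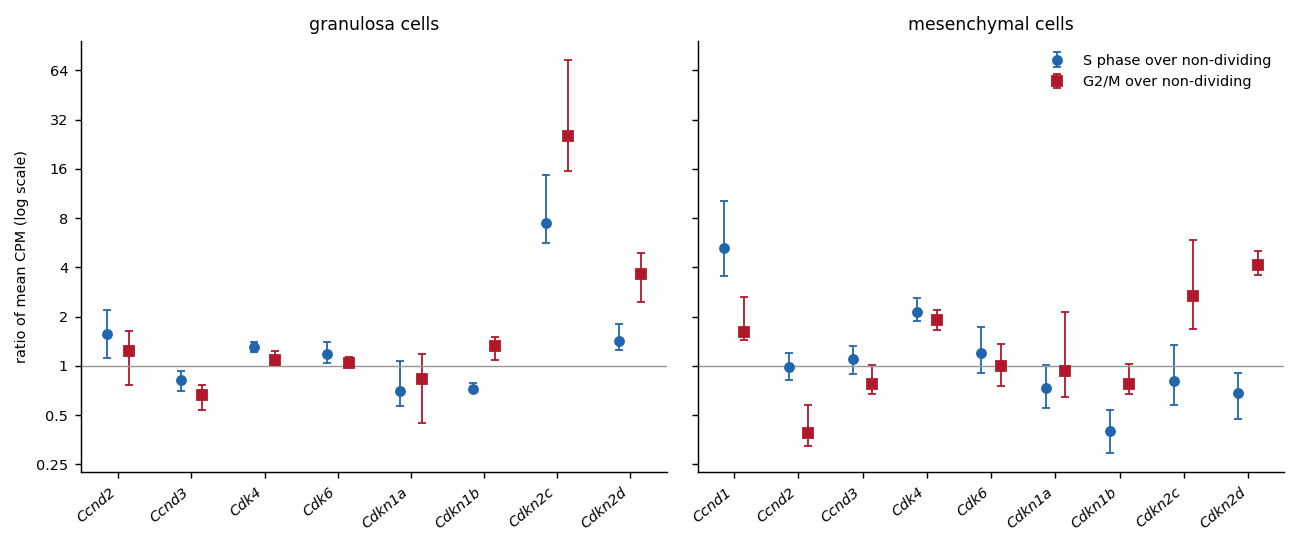
Mean CPM in S phase (blue circles) and in G2/M (red squares) over that of non-dividing cells, for granulosa cells on the left and mesenchymal cells on the right. The y axis is a log scale, the bars span the lowest and highest library, the line marks 1, and granulosa S phase includes cluster 10. Cdkn2c and Cdkn2d are highest in G2/M in both panels, and Ccnd1 is 5.23 in mesenchymal S phase.

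Set against each other, non-dividing granulosa and mesenchymal cells differed in 6 of 9 eligible members, beside a background of 37.2% in this comparison of unlike cells. Ccnd1 and Cdkn2c passed the CPM minimum only through mesenchymal cells, and without them 4 of 7 were called. Ccnd2 and Cdk6 were higher in granulosa cells, by 1.61 and 2. Ccnd1, Ccnd3, Cdkn2c and Cdkn2d were lower, by 0.0291, 0.265, 0.0306 and 0.494. The Ccnd1 ratio was 0.0477 with equal weight per cell. The Ccnd2 call was lost with TMM scaling, at 1.47. Cdkn1a was lower in granulosa cells at 2 to 5 wk and 1.21 times higher at 6 wk, so it was not called. The median log2 ratio was -1.02 for the members and 0.19 for all eligible genes. All 10 dissociation genes were lower in granulosa cells, and their part in these ratios was not tested.

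The other cell classes placed the members on a wider scale. Ccnd1 averaged 179 ± 23.1 CPM in pericytes, 162 ± 42 in blood endothelial and 109 ± 56.6 in hematopoietic cells, and in lymphatic endothelial cells it was 184 ± 50.7 over the 4 libraries with at least 20 such cells. In surface epithelial cells Ccnd1 went from 95, 44.5, 8.46, 8.12 and 1.93 CPM while Ccnd2 was 422, 365, 544, 543 and 678 CPM. Cdkn1a was highest in hematopoietic cells (348 ± 126) and pericytes (329.9 ± 153). Cdkn2b had its highest level of any group in rete ovarii cells, at 24.9 and 27.5 CPM at 2 and 3 wk, the libraries with at least 20 such cells.

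Age could be read only across single libraries, and the 2, 3 and 4 wk libraries were counted with Cell Ranger 3.1.0 and the 5 and 6 wk libraries with Cell Ranger 6.0.1. A difference between these 2 sets of ages and a difference between software versions cannot be told apart. In non-dividing mesenchymal cells Cdkn2c held 17.2, 9.51, 15.6, 48.8 and 52.4 CPM, with both later libraries far above the 3 earlier ones. Of the 22 groups with all 5 libraries, the 5 and 6 wk Cdkn2c levels were both above those of 2 to 4 wk in 17, and 3 and 4 wk were the 2 lowest in 18. The latter order was also that of 24.8% of all eligible genes in non-dividing mesenchymal cells and of 24.9% in granulosa cells. The 22 groups include non-dividing granulosa groups, where Cdkn2c was near the limit of counting. Its level in non-dividing granulosa cells was 0.0193 to 0.0343 times that in non-dividing mesenchymal cells by library. The part of free RNA of other cells in these counts was not tested. Among the activators the 5 and 6 wk libraries were both below the others in 15 groups for Cdk6, 13 for Ccnd2, 13 for Cdk4, 11 for Ccnd3 and 7 for Ccnd1, and both above them in 3 groups for Ccnd1 and in 0 for the other 4. The 22 groups come from the same 5 libraries, so agreement between groups is not repeated evidence. The share of all genes with such an order was not counted group by group.

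In non-dividing mesenchymal cells as a whole, 5 activators were lower in the 5 and 6 wk libraries than at 2 to 4 wk, with mean ratios for Ccnd1 of 0.562, for Ccnd2 of 0.563, for Ccnd3 of 0.685, for Cdk4 of 0.799 and for Cdk6 of 0.642. Cdkn1b and Cdkn2c were higher, with ratios of 1.41 and 3.59. Here a gene counts when both sets of libraries do not overlap, and 31.0% of all eligible genes did so in mesenchymal and 29.4% in granulosa cells. In granulosa cells the same rule held for 3 activators (Ccnd3, Cdk4 and Cdk6, lower) and for Cdkn1a and Cdkn2d, higher with ratios of 1.82 and 1.94. Both sums pool groups whose shares changed with age and do not separate levels from shares. Remodeling cells, for example, numbered 87 at 2 wk and 770 at 5 wk. At 5 over 2 wk Cdkn2d came to 0.968 in antral-like cells and 1.14 in cluster 2, and Cdkn1a to 2.20 and 1.82.

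**Figure D5:**
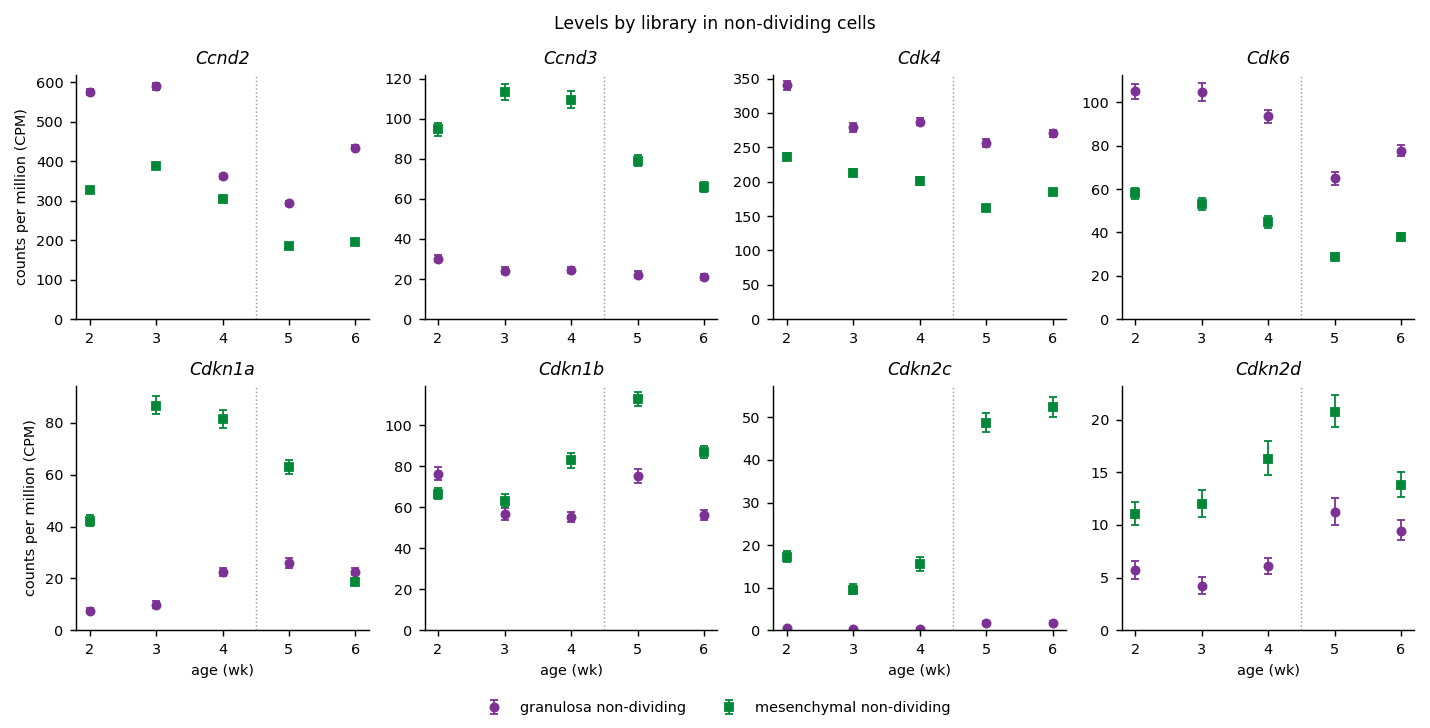
Level of 8 members by library age in non-dividing granulosa cells (purple circles) and non-dividing mesenchymal cells (green squares). The y axis is CPM, the bars are exact 95% Poisson intervals that cover counting error only, and the dotted line separates the libraries counted with the 2 Cell Ranger versions. Mesenchymal Cdkn2c is 48.8 and 52.4 CPM at 5 and 6 wk and 9.51 to 17.2 CPM before.

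The 5 wk library was set against the 2 wk library group by group, with intervals that cover counting error only. In antral-like cells Cdkn1a was higher at 5 wk by 2.20 (95% interval 1.52 to 3.25) and Cdkn1b by 1.51 (1.30 to 1.77), 2 of 7 eligible members beside a background of 20.7%. In antral cluster 4 alone they came to 1.47 and 1.36 and were not called, while Ccnd2 was called higher, at 1.64, and Cdk6 lower, at 0.649.

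Cdk4 was lower at 5 wk in cluster 2 and in primary-like cells, by 0.651 and 0.661. Both intervals (0.592 to 0.715 and 0.612 to 0.713) include the 1.5-fold limit. With the members left out of the second clustering the primary-like Cdk4 call was lost, at 0.676, and Cdkn1a was called higher, at 1.52. Cdk4 was 1 of 6 eligible members called in primary-like cells (background 13.4%), and in cluster 2 it was 1 of 2 called among 7 (background 20%). The other was Cdkn1a, at 1.82, whose interval of 0.958 to 3.31 includes 1. It passed the CPM minimum only through the 5 wk library, and with equal weight per cell the ratio was 2.86. Of the 10 dissociation genes, 9 were higher at 5 wk in cluster 2, 9 in primary-like cells and 8 in steroidogenic theca-like cells, and 0 lower. Of all eligible genes 20%, 13.4% and 36.6% were called there. In antral-like and in non-dividing mesenchymal cells 2 of 10 were higher and 0 lower, near the shares of all eligible genes (20.7% and 19.0%). The part of the dissociation genes in the age ratios was not tested.

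Steroidogenic theca-like cells numbered 489 at 5 wk and only 61 at 2 wk. At 5 wk they held less Ccnd1 (ratio 0.0922, interval 0.0525 to 0.161, and 0.146 with the members left out of the second clustering), Cdk4 (0.503, 0.445 to 0.569) and Cdk6 (0.493, 0.345 to 0.722). They held more Cdkn2c (1.70, 1.21 to 2.46). The intervals of Cdk6 and Cdkn2c include the 1.5-fold limit. These were 4 of 9 eligible members, beside a background of 36.6%. Ccnd1 was eligible there only through the 2 wk library. In non-dividing mesenchymal cells as a whole 6 of 9 were called beside 19.0%. Cdkn2c (2.83), Cdkn2d (1.88) and Cdkn1b (1.69) were higher, and Ccnd1 (0.410), Ccnd2 (0.569) and Cdk6 (0.496) lower. The subtypes held different shares of the cells at the 2 ages, and the sum does not separate levels from shares.

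Likeness of pattern was described over 116 sums of a library and a group with at least 30 cells, as Pearson correlation of log2(CPM + 1) among 10758 genes. The sums share libraries, depth and cell types, so these are descriptions. The genes most like Ccnd1 were Rcsd1 (0.847), Cd24a (0.847) and Atp2b1 (0.812), and those most like Ccnd3 were Sparc (0.873), Nr3c1 (0.865) and Pmp22 (0.864). Ccnd2 was most like another member, Cdk6 (0.727), followed by Stra6 (0.701) and Isyna1 (0.693). Cdk4 was most like Set (0.874) and Cdk6 most like Trim26 (0.743). Cdkn1a was most like Arid5a (0.849), Map3k8 (0.813) and St3gal1 (0.796). Cdkn2d was most like Cenpl, a kinetochore gene (0.676), and Cdkn2c most like Acat1 (0.765). For Cdkn1b the best was Epc1, at only 0.499.

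In the mouse annotation GENCODE vM21 (GRCm38), counted genes on the opposite strand overlap Ccnd1 (chr7:144929931-144939925, with LTO1), Ccnd2 (chr6:127125162-127152193), Ccnd3 (chr17:47505051-47599691, with Bysl), Cdk4 (chr10:127063534-127067920, with Tspan31) and Cdk6 (chr5:3341485-3531008). The study's methods give default settings for Cell Ranger, which count only reads on the sense strand of a gene, so that a member and its partner on the opposite strand are counted apart. No counted gene overlaps Cdkn1a, Cdkn1b (chr6:134920401-134925513), Cdkn2b, Cdkn2c (chr4:109660876-109667189) or Cdkn2d (chr9:21288410-21291407).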

How the data were processed

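Single-cell RNA-seq of 5 mouse ovary libraries (2 to 6 wk) was used. The deposited matrices hold raw UMI counts per gene and cell, which the authors made by aligning 10x reads to GRCm38 with Cell Ranger (3.1.0 at 2, 3 and 4 wk, 6.0.1 at 5 and 6 wk) without normalization. Median UMIs per cell were 9056 to 12424, and 0 UMIs allow up to 3 expected UMIs. Intervals cover counting error only.

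Libraries were integrated and clustered in Seurat 5.3.0 (R 4.3.3; 2000 variable genes, 30 of 50 principal components, 20 neighbours, resolution 1, seed 1), and granulosa and mesenchymal cells were clustered again. Clusters were named from marker lists by limits set after the clusters were seen, and antral cluster 3 took its name from the study's cluster profile, since its markers scored 0.694 for antral and 0.779 for remodeling cells. Of 48163 cells 8066 stayed in no class, and 1890 granulosa and 2419 mesenchymal cells stayed in no group. Scrublet (scanpy 1.11.5) doublets were kept, except in an alternative.

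UMIs were summed per library and group in Python 3.11.15 (numpy 2.4.6, pandas 2.3.3, scipy 1.17.1) and divided by all UMIs of the sum. With 1 library per age and clusters drawn from the same cells, 13 comparisons were made by the 1.5-fold rule and none by a test. Ages were compared as a ratio with an exact conditional 95% interval. Scripts were tested on simulated counts. Alternatives were TMM scaling (edgeR 4.0.16), doublets left out, members left out of clustering, resolution 0.6, stricter cells (a minimum of 1000 genes, mitochondrial UMIs below 10%), equal weight per cell, each library left out, and no CPM minimum. Regrouping the antral and S phase clusters and comparing phases and Cell Ranger versions were added after seeing the data. The members, gene lists and alternatives were chosen with earlier results of these data known. Of other genes the text names at most 4 called examples a list, the 3 most alike, overlapping genes and markers or leading genes of clusters. For dividing granulosa cells all called RB pathway partners are named.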

Additional observations from a re-analysis of the deposited data

Results flagged for a closer look

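Ccnd2 differed between dividing and non-dividing cells in opposite directions in the 2 lineages, in every library of each. Dividing granulosa cells held 1.45 times the Ccnd2 level of non-dividing ones, higher in 5 of 5 libraries (1.04 to 1.89), which was under the 1.5-fold limit. The non-dividing sum pools stages whose shares changed with age. Remodeling cells, with the lowest mean (212 CPM), numbered 87 at 2 wk and 1344 at 4 wk, where the ratios were 1.04 and 1.89. Dividing cells averaged 653 CPM, primary-like cells 619 CPM and cluster 9 855 CPM. The part of stage in the granulosa ratio was not tested. Dividing mesenchymal cells held 0.583 times the level, lower in 5 of 5 libraries (0.482 to 0.753). The lower mesenchymal value was that of G2/M cells (0.389), since S phase cells held 0.980 times the non-dividing level. The difference between the lineages was not tested, and the phase clusters of the 2 lineages were not built alike.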

How the results depend on the processing

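No paired analysis was possible because each age is 1 library with no replicate number shared between groups. Groups of cells were compared within each library, by description and without a test. Under the alternatives run, 126 counts of called members stayed within 1.5 times the reported count and 11 did not. A count can stay the same while its members change, as in antral cluster 4 alone at 5 over 2 wk. Of the ratios of eligible members, 910 stayed within the SD between libraries (for ages, within the counting interval) and 44 moved further. Leaving out 1 library can hardly move a ratio beyond that SD, and a wide SD lets large shifts pass. Cdkn1a in cluster 2 over primary-like cells went from 0.598 to 0.781 without the 6 wk library and was not counted as moved. These figures therefore do not measure how firm a single call is. No ratio of a called member turned to the other side of 1. The count of called members from primary-like cells to cluster 2 was 1 in place of 2 with TMM scaling, at resolution 0.6, with stricter cells and with equal weight per cell. Between S phase and non-dividing granulosa cells it was 4 in place of 1 without cluster 10, with Cdkn2d eligible only through the non-dividing cells. In dividing granulosa cells it was 1 without the 6 wk library, because Cdkn2c fell under the 5 CPM minimum there. Without the 2 wk or the 3 wk library Ccnd2 was called in addition. Antral cells at 5 over 2 wk gave 1 with the members left out of the second clustering and 5 with no CPM minimum. Cluster 2 gave 1 with stricter cells and 5 with no CPM minimum, and primary-like cells gave 3 with no CPM minimum. All of the added calls were of members under 5 CPM. Depth limits Ccnd1, Cdkn2b and Cdkn2c in granulosa cells, where a few UMIs decide a ratio. Between-animal error was not measured at any age.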

Other observations

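The unnamed granulosa clusters, which enter no comparison of stages, also differed in the members. Cluster 11 (571 cells), which led with Ccnb2, Cenpa and Cdc20, held 656 ± 135 CPM of Ccnd2 but only 2.91 ± 2.04 CPM of Cdkn2c and 4.67 ± 3.17 CPM of Cdkn2d, below the 22.3 and 26.6 CPM of the named G2/M cells in every library. Cluster 12 (512 cells), with Nppc and Ntng1 as leading genes, held 207 ± 24.6 CPM of Ccnd2 over the 4 libraries with at least 20 such cells, close to remodeling cells, and 7.84 ± 1.82 CPM of Cdkn1a, below them. Cluster 14 (374 cells), in which oocyte and collagen genes led and 42% of cells were called doublets, held 17.4 ± 8.13 CPM of Cdkn2c.

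Cdkn1a also differed between clusters that carried the same mesenchymal name. Of the Cxcl12 type, cluster 3 held 81.5, 108, 110.2, 103 and 24.6 CPM and cluster 11 held 2.30, 10.8, 15.6, 10.9 and 5.77 CPM, so that cluster 11 was lower in every library. Of the smooth muscle-like cells, cluster 0 held 44.5, 93.7, 118, 67.6 and 20.9 CPM of Cdkn1a and cluster 14 held 9.14, 28.6, 22.6, 5.72 and 1.34 CPM. Cdkn1a was among the genes used for clustering, and the heat shock genes Hspa1a and Hspa1b were among the leading genes of cluster 11, so these levels are given as descriptions.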
